A study of Mus musculus with 11 samples.

Results

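The cell division machinery of obese epididymal fat was followed through 51 genes named from general knowledge of replication and mitosis, and all 51 were found by symbol among the 15453 genes of the per-mouse tables. They comprised 17 genes of G1/S control and DNA replication and 34 genes of chromosome structure, mitosis and cytokinesis. Expression came from SAGE, the serial analysis of short transcript tags, on epididymal white adipose tissue (eWAT), which was taken from 11 C57BL/6 males (C57BL/6J in the methods of the study). The 6 wildtype (WT) mice were compared with 5 mice that inherited an inactivated Mest allele from the father (pKO). Mest encodes mesoderm specific transcript, an imprinted gene read almost only from the paternal copy, and the inactivated allele lacks exon 3 in every tissue after germline deletion with EIIa-cre, so a pKO mouse keeps an intact but largely silent maternal copy. All mice were 16 weeks old and had eaten a high fat diet from week 8 to week 16. The RNA came from whole tissue, in which fewer dividing cells and less RNA per dividing cell cannot be told apart.

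Cells that are not dividing hold most of these transcripts at low levels. On entry into the cycle, E2F factors released from the retinoblastoma protein switch on the genes of DNA replication, and a later wave of genes for mitosis follows through promoters that carry the cell cycle homology region (CHR) and CCAAT boxes bound by the DREAM and B-MYB complexes and NF-Y. Mature adipocytes have left the cycle, whereas macrophages, endothelial cells and adipocyte progenitors of fat can divide, and in diet-induced obesity macrophages are known to proliferate within the tissue.

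Values are SAGE tags after division by the size factor of each library, so 1 unit is close to 1 tag. Recovered totals ran from 9659740 to 14825727 tags in WT and from 11320342 to 14626803 in pKO mice. The library labels held for the targeted gene, since Mest was at 25107 ± 2672 in WT against 1663 ± 566 in pKO mice (SD, n = 6 and 5), with a log2 fold change (pKO minus WT) of -3.99 and an adjusted p of 1.2e-06 from limma. Adipocyte markers were abundant in every mouse, with a summed value of 794513 to 1245490 in WT and 882111 to 1254320 in pKO mice. Of 16 genes of testis and epididymis, 10 were not listed and 5 had a mean below 10. These organs border this fat pad, and the testis contains dividing germ cells. The exception was Sycp3, a protein of the meiotic chromosome axis, with 491 ± 117 in WT and 336 ± 133 in pKO mice. Within the pKO group, replicate 2 had the highest value in most of the division genes, as described below. The results that changed most on leaving it out are given both ways.

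SAGE counts the tag that starts at the CATG nearest the 3′ end of a transcript, so a level depends on where that site lies and not on transcript length. A site was found in the longest RefSeq-linked coding transcript of all 51 genes. It lay in the 3′ untranslated region of 42 genes and in a coding exon of 9, a median of 130 bases from the annotated transcript end. A full tag of 27 bases was available in 46 genes. Of these full tags, those of Tk1, Cenpf and Stmn1 also occurred in transcripts of other genes, so their values are less certain. The shorter tags of Mcm6, Ccna2, Cdca8, Aurkb and Smc2 were not searched for in other genes, so whether they are shared is not known. The tags below were predicted from these transcripts and were not compared with the sequenced tags. They are those of Pcna, with the most tags, Cdca8, with the fewest, and the mitotic kinase gene Cdk1. Those of Mcm7, Plk1 and Kif23, the genes with the smallest p-values, are also shown. The CATG is in capitals and GRCm38 positions are from the GENCODE annotation. In Pcna, Gins2, Nusap1 and Cenpe the predicted tag lies outside the RefSeq bounds of the gene, so which tag was counted is less certain.

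Pcna, chr2:132249237-132249263, minus strand, last exon: CATGgctactgaatagttataccctgt
Cdk1, chr10:69335198-69335224, minus strand, last exon: CATGtcccaagacagggacgactcaat
Mcm7, chr5:138164617-138164643, minus strand, last exon: CATGctgcacttttttattctgccaat
Plk1, chr7:122169744-122169770, plus strand, last exon: CATGtctgggtgtgggtttacatctgc
Kif23, chr9:61921050-61921076, minus strand, exon 19 of 23: CATGctgacccaccaggaactagcctc
Cdca8, chr4:124918465-124918478, minus strand, last exon: CATGgttttaagtc

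In Cdca8 only 14 bases separate the start of this tag from the annotated end, and in Aurkb 12 and in Smc2 9. The tags of Pcna, Cdk1, Mcm7 and Plk1 lie in the 3′ untranslated region and that of Kif23 in a coding exon.

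Abundance differed widely among the 51 genes. Pcna, the sliding clamp that holds DNA polymerase on its template, had by far the most tags, 15685 over the 11 libraries, and supplied 19.4% ± 1.2 of all division gene tags in WT and 22.1% ± 5.8 in pKO mice (SD). The median gene had 732 tags in all and Cdca8 had 19. A mean of 50 or more in WT or in pKO mice, the level required of a called gene, was reached by 33 of the 51, of which 4 reached it in one genotype only. The 18 genes below it included Ccnb1, Ccnb2, Cdc20, Plk1, Aurkb, Bub1 and Kif11, which are used at the entry to and exit from mitosis. In 6 genes at least 1 mouse had under 10 tags. Summed over all 51 genes, the division transcripts made up 566 ± 68.8 of every 1000000 tags in WT against 542 ± 83.7 in pKO mice (SD, n = 6 and 5). The ranges overlapped, at 450.5 to 650.0 and 444 to 667.

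No gene of the 51 differed between genotypes after adjustment. At an adjusted p of at most 0.1 (limma on log2(value + 1), Benjamini-Hochberg over all 15453 genes) 0 of the 33 sufficiently abundant genes were called, beside 0.0505% of all 9906 such genes, and the lowest adjusted p among the 51 was 0.42. At an unadjusted p of at most 0.05, 1 of the 33, Mcm7, was lower in pKO mice and none was higher, beside 5.77% and 4.85% of all such genes. Without the minimum mean, Plk1 was also lower and Kif23 higher, 3 of 51 beside 9.55% of all genes. The edgeR quasi-likelihood test, DESeq2 and limma-voom on the recovered tags also called 0 of the 51 after adjustment and the same 3 genes at an unadjusted p of at most 0.05. In no gene were the genotypes fully apart, beside 0.673% of all genes that lay wholly lower and 0.569% wholly higher in pKO mice. Log2 fold changes were below 0 in 35 of the 51 genes (68.6%, beside 50.4% of all genes), with a median of -0.14 against -0.0025 over all genes. Because fold changes are taken on log2(value + 1), they understate differences of the genes with few tags.

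**Figure D1:**
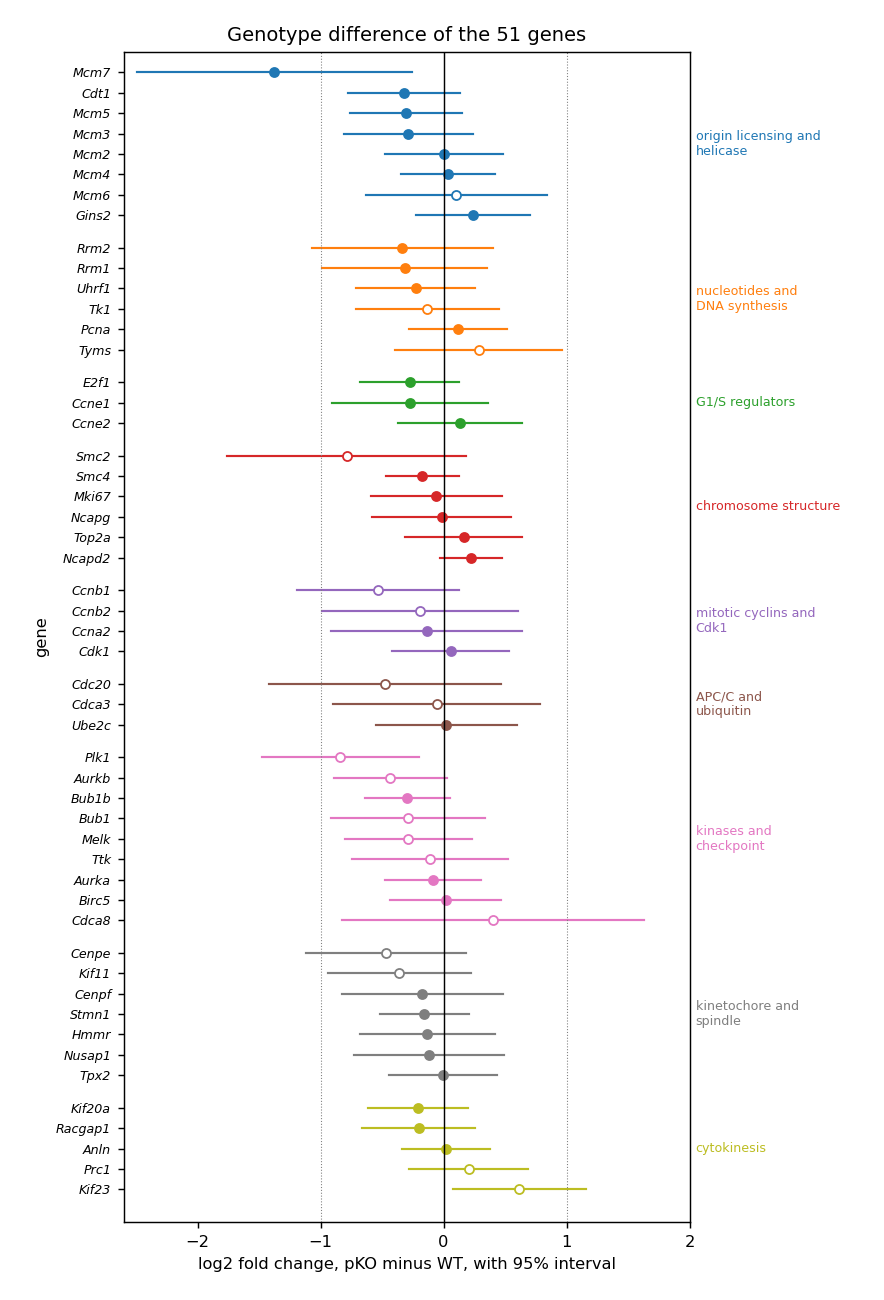
Log2 fold change of each of the 51 genes (x axis, pKO minus WT on the log2(value + 1) scale), with its 95% interval from limma, grouped by role on the y axis. Filled points are the 33 genes with a mean of 50 or more in either genotype, open points the other 18, dotted lines mark 2-fold differences, and the interval leaves out 0 only for Mcm7, Plk1 and Kif23.

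Precision set how small a difference could be seen. The standard error of the log2 fold change had a median of 0.25 and ran from 0.12 (Ncapd2) to 0.57 (Cdca8). On the log2(value + 1) scale, the 95% interval lay within a 2-fold difference in either direction for 42 of the 51 genes. It lay within a 1.5-fold difference for 12. For the other 9 genes a difference of over 2-fold in at least 1 direction lay within the interval. In genes with few tags the fold of the value itself is larger than on this scale, so these counts do not bound it.

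Among the 8 genes of origin licensing and the replicative helicase, Mcm7 was the only one to pass the unadjusted threshold. It encodes a subunit of the MCM ring that unwinds DNA at the fork. Mcm7 ranged from 118 to 221 in WT mice with a median of 162, and the pKO mice had 100.4, 165, 48.8, 89.1 and 10.2. Of the pKO mice, 4 lay below every WT mouse, and replicate 2 lay within the WT range. The log2 fold change was -1.38 (SE 0.52; limma p = 0.019, adjusted p = 0.44; exact permutation p = 0.013, two-sided). Much of its size came from replicate 5, with 10 tags, and without that mouse it was -0.765 (limma adjusted p = 0.48). The other MCM subunits did not share this pattern, with log2 fold changes from -0.30 (Mcm5) to 0.10 (Mcm6) and unadjusted limma p-values of at least 0.17. Gins2, a subunit of the GINS complex that activates the helicase, was the most abundant of the role, at 148 to 222 in WT mice (median 178) and 248, 332, 216, 197 and 123 in pKO mice. The pKO values lay on both sides of the WT range (log2 fold change 0.24, SE 0.21; limma adjusted p = 0.76). Without replicate 5, the lowest of them, it was 0.44 and passed the unadjusted threshold (limma adjusted p = 0.49).

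The 6 genes of nucleotide supply and DNA synthesis gave log2 fold changes from -0.34 (Rrm2, a ribonucleotide reductase subunit) to 0.29 (Tyms, thymidylate synthase), and none passed the unadjusted threshold. Pcna was at 1141 to 1537 in WT mice with a median of 1351, and at 839, 1516, 1637, 1519 and 1939 in pKO mice. The lowest and the highest of the 11 values were thus both from pKO mice, and the log2 fold change was 0.12 (SE 0.19; limma adjusted p = 0.87). The value rested on single pKO mice, at 0.31 without replicate 1, past the unadjusted threshold (limma adjusted p = 0.40), and at 0.012 without replicate 5. The 2 subunits of ribonucleotide reductase were lowest in the same mouse, pKO replicate 1, with 17.2 for Rrm1 and 49.8 for Rrm2 against at least 39.6 and 129 in every WT mouse. In the other 4 pKO mice Rrm2 was at 183 to 212, inside the WT range.

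The G1/S regulators Ccne1 and Ccne2, the E-type cyclins that drive entry into S phase with Cdk2, and the transcription factor E2f1 did not differ between genotypes beyond their spread. Ccne1 was the most abundant of them, at 126 to 355 in WT mice (median 261) and 163, 393, 201, 165 and 144 in pKO mice. Replicate 2 was far above the other pKO mice, while the WT mice covered nearly the whole span (log2 fold change -0.27, SE 0.29; limma adjusted p = 0.80), and without replicate 2 the log2 fold change was -0.52 (limma adjusted p = 0.42). E2f1 was steadier, at 217 ± 23.7 in WT against 185 ± 48.5 in pKO mice (SD, n = 6 and 5).

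Chromosome structure was represented by 6 genes, the topoisomerase Top2a that untangles sister DNA, condensin subunits, and Mki67, whose protein coats mitotic chromosomes and is the common marker of cycling cells. Mki67 ranged from 88.8 to 169.8 in WT mice with a median of 132, and the pKO mice had 113, 219, 135, 98.0 and 87.0. Apart from the high value of replicate 2, the genotypes spanned much the same levels (log2 fold change -0.06, SE 0.25; 95% interval -0.59 to 0.47; limma adjusted p = 0.96). Top2a was within a narrow band of 109 to 137 in WT mice (median 113), and the pKO mice, with 144, 225, 148, 80.3 and 102, lay above and below it (log2 fold change 0.16, SE 0.22; limma adjusted p = 0.86). Ncapd2, a condensin I subunit, had the smallest error of the 51 genes. It was at 386 to 500.3 in WT mice (median 407) and at 502, 477, 525, 444 and 525 in pKO mice, so that 3 pKO mice were above every WT mouse. Its log2 fold change was 0.22 (SE 0.12; limma p = 0.079, adjusted p = 0.57; exact permutation p = 0.030), and without WT replicate 2 it was 0.27 (limma p = 0.044, adjusted p = 0.63). Smc2, a core condensin subunit, had few tags and a wide spread in pKO mice, at 26.6, 56.2, 16.3, 9.71 and 6.14 against 18.3 to 45.1 in WT mice (median 30.3), and its log2 fold change of -0.79 (SE 0.45) did not pass, whereas without replicate 2 it passed the unadjusted threshold at -1.20 (limma adjusted p = 0.21).

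The mitotic cyclins and their kinase were far apart in abundance. Cdk1, the kinase that starts mitosis, was at 225 to 525 in WT mice (median 414) and at 397, 505, 446, 309.8 and 303 in pKO mice, all inside the WT range (log2 fold change 0.06, SE 0.22; 95% interval -0.42 to 0.53; limma adjusted p = 0.96). Its partner Ccnb1 was far less abundant, at 27.3 to 52.4 in WT mice (median 37.9) and 22.3, 40.1, 23.4, 40.6 and 12.3 in pKO mice. In Ccnb1, 3 pKO mice lay below every WT mouse and 2 within the WT range, and the log2 fold change was -0.53 (SE 0.31; limma adjusted p = 0.60; exact permutation p = 0.13). It passed the unadjusted threshold without pKO replicate 2 (-0.69; limma adjusted p = 0.38) or replicate 4 (-0.70; limma adjusted p = 0.49). Ccnb2 was among the 3 genes with the lowest means. Its values were 5.85 to 14.6 in WT mice (median 8.95) and 7.73, 16.0, 9.16, 2.65 and 10.2 in pKO mice, 3 to 16 tags a library, at which no genotype difference was detectable (95% interval -0.99 to 0.61).

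Of the 3 genes of the anaphase-promoting complex pathway, which marks mitotic proteins for degradation, the ubiquitin-conjugating enzyme Ube2c was the most abundant. It was at 95.5 to 167 in WT mice (median 146) and at 69.5, 227, 146, 114 and 182 in pKO mice, again with pKO values on both sides of the WT range (log2 fold change 0.02, SE 0.27, and below 0 in 6 of the 23 other settings; limma adjusted p = 0.99). The activator Cdc20 had only 3 to 17 tags a library. Its values were 8.36 to 16.4 in WT mice (median 11.8) and 2.58, 19.5, 4.07, 8.83 and 17.4 in pKO mice, the widest scatter being among pKO mice (95% interval -1.42 to 0.46).

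Among 9 genes of mitotic kinases, the chromosomal passenger complex and the spindle checkpoint, Plk1 had the smallest p of all 51 genes. Plk1, the polo-like kinase of centrosome maturation and mitotic entry, was chosen for description after its values were seen. It was at 31.8 to 43.5 in WT mice (median 37.9) and at 12.02, 41.3, 16.3, 33.5 and 14.3 in pKO mice. The WT mice lay close together, 3 pKO mice had less than 50% of the WT median, and replicates 2 and 4 were within the WT range. The log2 fold change was -0.84 (SE 0.30; limma p = 0.014, adjusted p = 0.42; exact permutation p = 0.028), with a mean below 50 in both genotypes. Aurkb, the kinase of the passenger complex, had a log2 fold change of -0.43 (SE 0.21; limma p = 0.063, adjusted p = 0.54; exact permutation p = 0.039), with 30.5 ± 6.14 in WT and 22.3 ± 4.60 in pKO mice. Without WT replicate 3, WT replicate 5 or pKO replicate 3 it passed the unadjusted threshold, at -0.51, -0.50 and -0.52 (limma adjusted p = 0.60, 0.54 and 0.66). Birc5 (survivin), a partner in the same complex, was the most abundant of the role and did not share this direction, at 225 to 325 in WT mice (median 311) and 321, 479, 279.8, 177 and 303 in pKO mice (log2 fold change 0.02, SE 0.21; limma adjusted p = 0.99; -0.02 with total-count scaling). Cdca8 (borealin), a further partner, had 0 to 5 tags a library. The values of Cdca8 were 0 to 3.07 in WT mice (median 1.08) and 1.72, 5.73, 1.02, 2.65 and 0 in pKO mice, and nothing can be read from them about genotype.

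All 7 genes of the kinetochore and spindle had log2 fold changes below 0, beside 50.4% of all genes. They ran from -0.47 (Cenpe, a kinesin of the kinetochore) to -0.0014 (Tpx2, a spindle assembly factor), and none passed the unadjusted threshold. Without pKO replicate 2, Cenpe passed it at -0.78 (limma adjusted p = 0.17). Stmn1 (stathmin), which destabilises microtubules and also acts outside mitosis, was the most abundant, at 137 to 202 in WT mice (median 178) and 109, 149, 184, 147 and 175 in pKO mice. The lowest pKO value of Stmn1 was below the WT range and the other 4 within it (log2 fold change -0.16, SE 0.17; limma adjusted p = 0.80).

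In cytokinesis, Kif23 was the only gene of the 51 with a 95% interval above 0. Kif23 (MKLP1), the kinesin of the centralspindlin complex at the cell midbody, was also chosen after its values were seen. It was at 9.71 to 24.7 in WT mice (median 17.9) and at 19.7, 35.5, 21.4, 31.8 and 27.6 in pKO mice, from 10 to 36 tags a library. The pKO mice lay in the upper part of the WT range or above it, and the log2 fold change was 0.62 (SE 0.25; limma p = 0.028, adjusted p = 0.47; exact permutation p = 0.026). It missed the unadjusted threshold when any of 3 mice was left out, with 0.47 without WT replicate 4, 0.52 without pKO replicate 2 and 0.55 without pKO replicate 4 (limma adjusted p = 0.57, 0.44 and 0.52). Racgap1, the other component of centralspindlin, did not share this direction, at 141 ± 20.6 in WT against 127 ± 44.0 in pKO mice (SD, n = 6 and 5). Anln (anillin), the scaffold of the contractile ring, was the most abundant of the role, at 210.3 to 339.8 in WT mice (median 307) and 237, 393, 329.7, 279 and 273 in pKO mice. Of the 5 pKO values of Anln, 4 lay inside the WT range (log2 fold change 0.02, SE 0.17; limma adjusted p = 0.98; -0.02 with total-count scaling).

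**Figure D2:**
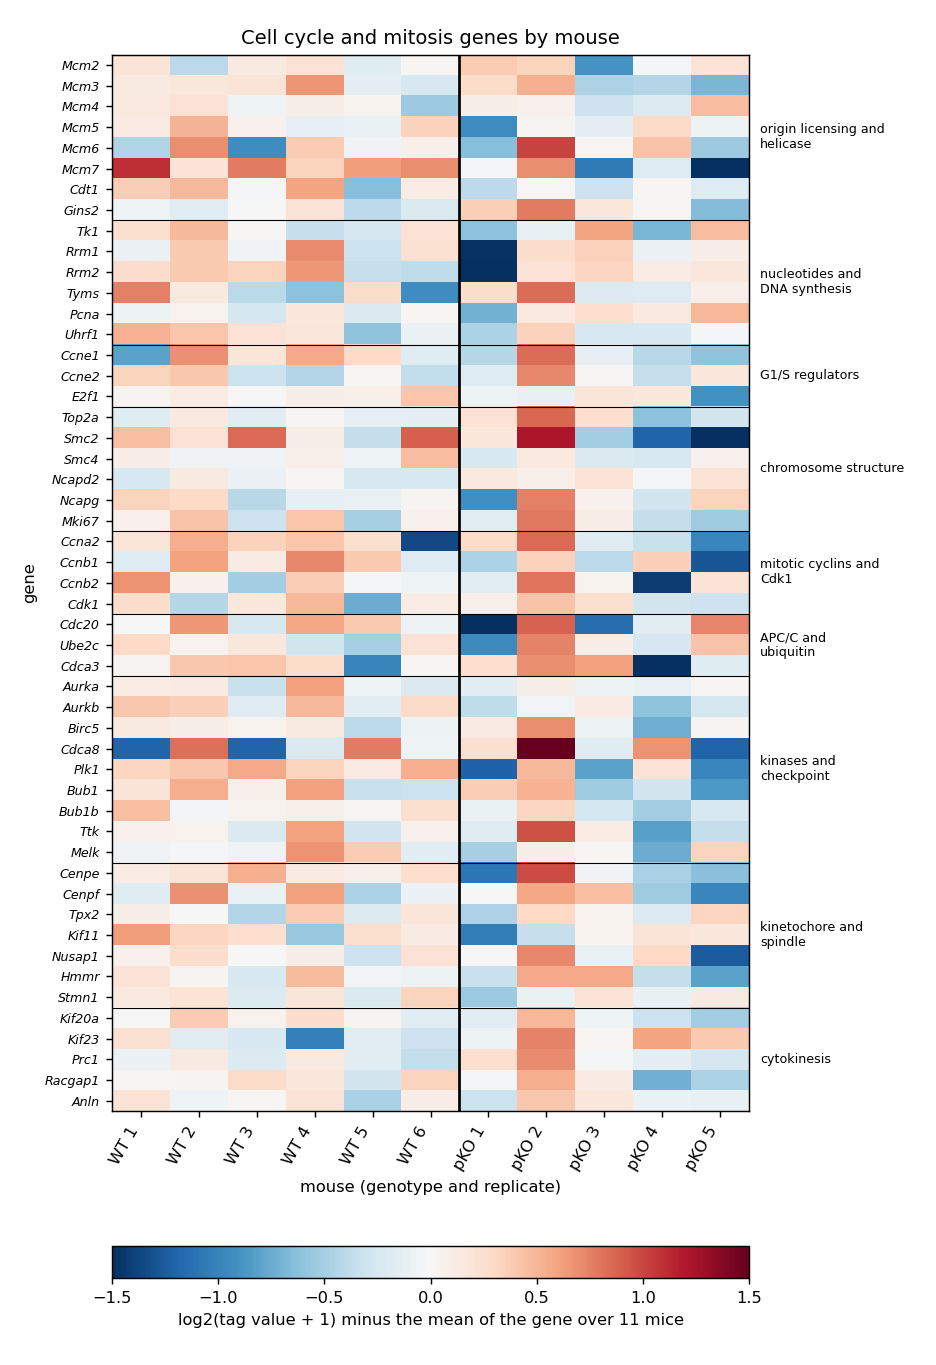
Each row is a gene of the 51 and each column a mouse, with colour for log2(value + 1) minus the mean of the gene over the 11 mice (scale ends at -1.5 and 1.5, beyond which colours saturate), and a vertical line between the 6 WT and 5 pKO mice. The column of pKO replicate 2 is red in most rows, in contrast with the other pKO columns.

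One pKO mouse was above the rest of its genotype in most of these genes. Its scores, defined next, did not pass the outlier limit (Dixon) given further below. A score per mouse, the mean over the 51 genes of the log2 deviation from the mean of each gene, was -0.13 to 0.24 in WT mice with a median of 0.06, and -0.30, 0.50, -0.06, -0.25 and -0.31 in pKO mice. Replicate 2 thus had the highest score of the 11 mice, while replicate 3 lay among the lower WT mice and the other 3 pKO mice below every WT mouse. The group means were 0.07 ± 0.15 in WT against -0.08 ± 0.34 in pKO mice (SD, n = 6 and 5), a difference of -0.15 that was smaller than the SD among pKO mice. Without replicate 2 the pKO mean was -0.23 ± 0.12 (SD, n = 4), and the difference was -0.30. Replicate 2 was left out for its high values, so a wider difference and a smaller pKO SD follow from that choice. The median log2 fold change without this mouse was -0.29, beside 0.0047 over all genes, and 43 of the 51 genes were below 0. The genes were measured in the same libraries, so their signs are not independent of each other. Without this mouse 3 division genes with a mean of 50 or more, Mcm7, Bub1b and Kif20a, were lower at an unadjusted p of at most 0.05. None was higher, beside 14.9% of all such genes in either direction, and 0 passed the adjusted threshold. With all mice, 33 of the 51 had such a mean. With no minimum mean Smc2, Ccnb1, Plk1 and Cenpe were also lower and none higher, 7 of 51 beside 12.8% of all genes in either direction. Replicate 2 had the highest score of the 11 mice for the replication genes (0.39) and for the mitosis genes (0.55). The other pKO mice differed in order between both scores, since replicate 4 was the lowest of all mice for the mitosis genes (-0.33) but within the WT range for the replication genes (-0.09).

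Replicate 2 had the highest value of the 5 pKO mice in 34 of the 51 genes (66.7%), beside 22.0% of the 9906 genes with a mean of 50 or more, and the lowest in none. The genes in which it led included Mki67, Top2a, Cdk1, Birc5, Ccna2, Ube2c and Anln. Among WT mice, replicate 5 had the lowest value in 20 of the 51 genes (39.2%), beside 15.8% of the 9906 genes, and the highest in none. Without WT replicate 5, 40 of the 51 genes were below 0, beside a median log2 fold change of 0.0025 over all genes. Of the genes with a mean of 50 or more, Mcm7 and Cdt1, the loader of the MCM ring, were then lower at an unadjusted p of at most 0.05. None was higher, beside 9.73% of all such genes in either direction. With no minimum mean Aurkb and Plk1 were also lower and Kif23 higher, beside 8.86% of all genes in either direction.

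**Figure D3:**
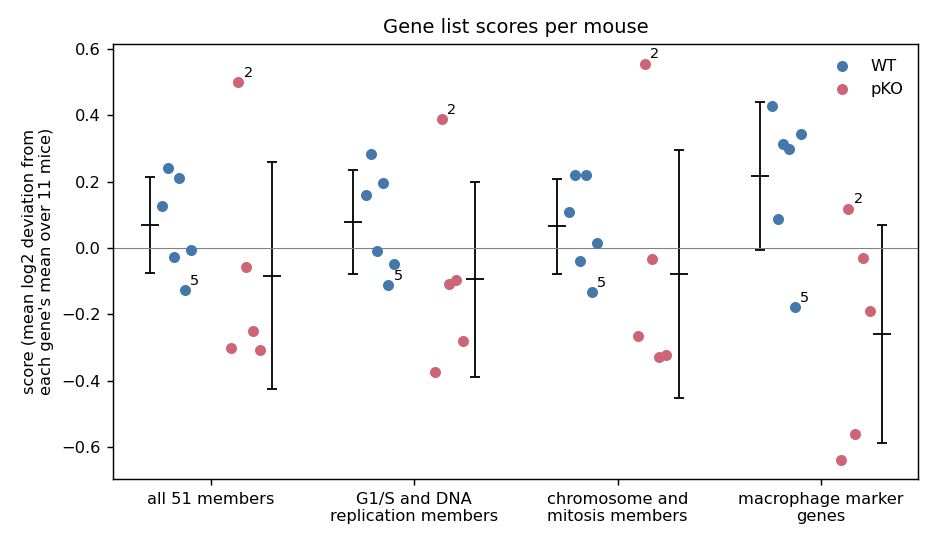
Points are the 11 mice, with the score (y axis, mean log2 deviation from the mean of each gene) for all 51 genes, for the 17 replication and 34 mitosis genes among them, and for 13 macrophage markers, and bars give the group mean and SD. Replicate 2 of the pKO mice and replicate 5 of the WT mice carry their numbers, and replicate 2 lies above every other mouse in the 3 division gene scores but not in the macrophage score.

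Several macrophage markers had lower values in pKO mice, and some of the same mice were high or low in them. The score of the 13 listed markers was 0.22 ± 0.22 in WT against -0.26 ± 0.33 in pKO mice (SD, n = 6 and 5), their summed value was 8598 to 14221 in WT and 7032 to 11305 in pKO mice, and 6 of the 12 with a mean of 50 or more were lower in pKO mice at an unadjusted limma p of at most 0.05, beside 5.77% of all such genes, with 0 passing the adjusted threshold. Among them was Gpnmb, a marker of lipid-laden macrophages, at 3674 ± 742 in WT and 2060 ± 992 in pKO mice. Emr1 (F4/80), the common surface marker of mouse macrophages, did not share the pattern, at 669 to 1048 in WT mice and 821, 754, 631, 788 and 1333 in pKO mice, with the highest value in replicate 5. Replicate 2 had the highest macrophage score of the pKO mice (0.12, against -0.64 to -0.03 in the others), and WT replicate 5 the lowest of the WT mice (-0.18, against 0.09 to 0.43). The mice did not keep the same order throughout, since pKO replicate 3, with a macrophage score of -0.56, had a division score of -0.06. Mesothelial markers, of which 3 of the 6 with a mean of 50 or more were higher in pKO mice at an unadjusted limma p of at most 0.05, beside 4.85% of all such genes, had a score of 0.15 in replicate 2, inside the range of the other pKO mice (-0.46 to 0.90). For endothelial markers, replicate 2 had the lowest score of the pKO mice (-0.24) and WT replicate 5 the lowest of the WT mice (-0.32). Replicate 2 was also the lowest pKO mouse for progenitor and fibroblast markers (-0.09), where WT replicate 5 was at -0.11. For adipocyte markers replicate 2 was the lowest pKO mouse (-0.05) and WT replicate 5 the highest WT mouse (0.21). The part of these cell types in the division gene values was not tested.

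The spread between mice was larger in pKO than in WT mice for most of the 51 genes, as it was for most genes in these libraries. Over the 33 genes with a mean of 50 or more, the median coefficient of variation (CV) was 18.3% in WT and 31.6% in pKO mice, where counting of the tags alone gives about 8.94%. The pKO value was above the WT value in 27 of the 33 genes (81.8%), beside 73.5% of the 9906 genes, whose median CVs were 15.5% and 23.2%. Leaving out replicate 2 lowered the pKO median to 26.5% for the 33 genes and 22.3% for the 9906. Over the 18 genes with fewer tags the median CVs were 27.4% and 46.5%, with a counting part of 19.8%. Aurka, the kinase of the spindle poles, was an exception, with 25.4% in WT and 7.14% in pKO mice.

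**Figure D4:**
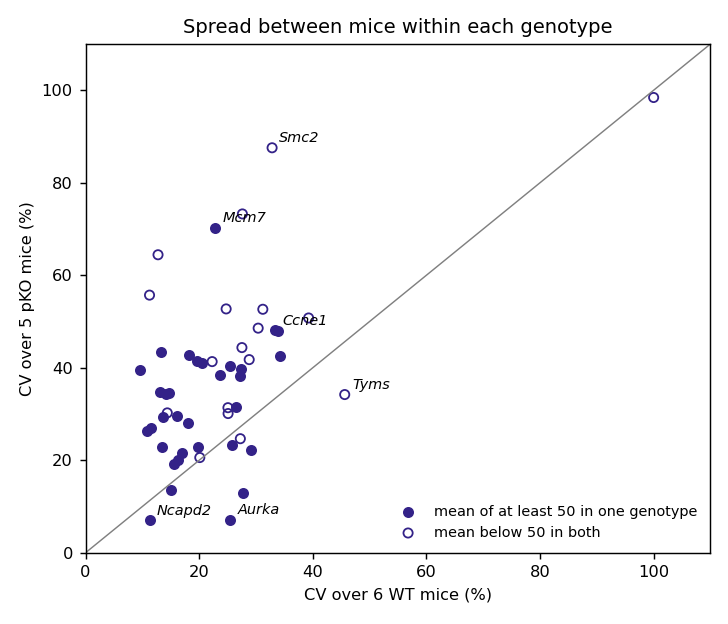
Coefficient of variation of each of the 51 genes over 6 WT mice (x axis, %) and over 5 pKO mice (y axis, %), with filled points for the 33 genes with a mean of 50 or more in either genotype, open points for the other 18, and a line of equal spread. Most points lie above the line, Mcm7 among them, and Aurka, Ncapd2 and Tyms below it.

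Genes of mitosis also varied together from mouse to mouse within the genotypes. After the mean of each genotype was taken out, the median Pearson correlation over pairs of the 19 mitosis genes with a mean of 50 or more was 0.42 across the 11 mice, and 91.8% of the 171 pairs were above 0. For the 14 replication genes it was 0.16, and for all 9906 genes -0.0026. Without replicate 2 these medians were 0.24, 0.044 and -0.0032, so much of the shared variation in both groups of genes came from that mouse. The genes were measured in the same libraries, so the pairs are not independent of each other.

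Further genes of the same pathways, from lists that do not contain the 51, were counted in the same way, at an unadjusted limma p of at most 0.05, beside 5.77% of all genes with a mean of 50 or more that were lower and 5.35% with no minimum mean. Of 43 other replication genes, all listed, 25 had a mean of 50 or more and 1 of these was lower in pKO mice, Orc5, a subunit of the origin recognition complex (355 ± 43.8 in WT, 221 ± 93.8 in pKO mice). Of 56 listed among 60 other mitosis genes, 19 had such a mean and 2 of these were lower, the chromatin protein Hmgb2 (325 ± 48.5 and 197 ± 107) and the mitotic kinase Pbk (56.8 ± 12.2 and 37.1 ± 29.4). Of 11 listed G1 cyclins, kinases and their regulators, 7 had such a mean and 1 was lower, Skp2, the ubiquitin ligase subunit that degrades the inhibitor p27 (102 ± 19.2 and 59.4 ± 42.5). Orc5, Hmgb2 and Skp2 were lowest in pKO replicates 3 and 5. These mice had 131 and 115 for Orc5, 104 and 84.9 for Hmgb2, and 18.3 and 11.3 for Skp2. In pKO replicates 1, 2 and 4 Orc5 was at 245, 311 and 306, beside 283 to 395 in WT mice. In the same replicates Hmgb2 was at 184, 317 and 296, beside 253 to 379 in WT mice. Skp2 was there at 107, 86.0 and 74.1, beside 83.9 to 135 in WT mice. Of 21 inhibitors of the cycle, 18 had such a mean and none of these passed, and the abundant Cdkn1a (p21) had 2379 ± 202 in WT against 1988 ± 787 in pKO mice. With no minimum mean, 4 of the 43, 4 of the 56, 1 of the 11 and 1 of the 21 were lower. No gene of these lists was higher at that level or passed an adjusted p of 0.1. The median log2 fold changes of the 4 lists were -0.11, -0.12, -0.10 and -0.04.

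What the 51 genes share beyond their names can be read from their promoters. A RefSeq window from 250 bases before to 50 after the gene start (GRCm38.p6) matched 42 of the 51 by symbol. The letters searched, on both strands, were TTTGAA and TTCGAA for the CHR, CCAAT for the CCAAT box, and TTTGGCG or TTTCCCG or TTTGCCG or TTTCGCG for the E2F element, and matches to different elements shared a base in 1 window only, that of Cdca8. CHR letters occurred in 23 of 28 chromosome and mitosis genes (82.1%) but in 2 of 14 replication genes (14.3%), beside 16.5% of the 10800 measured genes with a window and 21.7% of all 27025 genes in the table. CCAAT occurred in 24 of the 28 and 9 of the 14, beside 42.3% of measured genes and 41.1% of all. CHR and CCAAT letters stood together in 22 of the 28, beside 6.79% of measured genes. E2F letters were more frequent in the replication genes, at 6 of 14 (42.9%) against 7 of 28 (25.0%), beside 11.9% of measured genes and 7.65% of all. These matches are letters in a window and not bound sites.

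**Figure D5:**
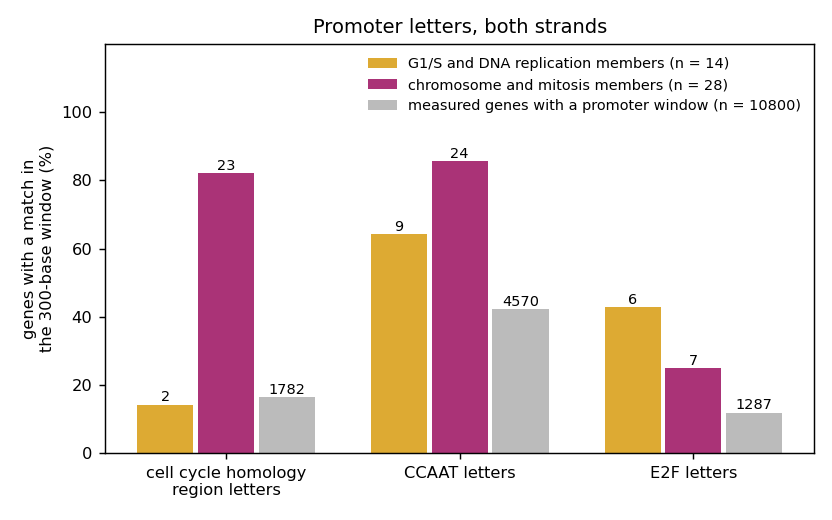
Share of genes (y axis, %) whose promoter window holds CHR, CCAAT or E2F letters, for 14 replication genes, 28 chromosome and mitosis genes and the 10800 measured genes with a window, and the number of genes above each bar. CHR letters are in 23 of the 28 mitosis genes and 2 of the 14 replication genes.

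The windows of 3 mitosis genes with levels given above (Cdk1, Top2a and Mki67) and of Mcm7 are printed to show how the letters are arranged, from 250 bases before the start to the base before it. For Kif23, 30 bases around the start site are shown, and for Plk1, 30 bases that lie after it. Capitals mark the CHR, CCAAT and E2F letters on either strand.

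Cdk1, chr10:69352913-69353162, minus strand: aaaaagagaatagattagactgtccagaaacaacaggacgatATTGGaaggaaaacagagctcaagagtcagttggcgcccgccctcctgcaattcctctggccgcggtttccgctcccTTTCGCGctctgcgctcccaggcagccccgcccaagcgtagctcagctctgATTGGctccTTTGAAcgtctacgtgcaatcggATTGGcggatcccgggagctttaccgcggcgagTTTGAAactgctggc
Top2a, chr11:99024190-99024439, minus strand: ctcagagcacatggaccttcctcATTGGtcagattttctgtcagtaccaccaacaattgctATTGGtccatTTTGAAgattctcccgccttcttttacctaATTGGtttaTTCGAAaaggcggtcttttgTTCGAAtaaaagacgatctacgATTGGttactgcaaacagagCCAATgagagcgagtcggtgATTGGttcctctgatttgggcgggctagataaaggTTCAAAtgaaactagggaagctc
Mki67, chr7:135716380-135716629, minus strand: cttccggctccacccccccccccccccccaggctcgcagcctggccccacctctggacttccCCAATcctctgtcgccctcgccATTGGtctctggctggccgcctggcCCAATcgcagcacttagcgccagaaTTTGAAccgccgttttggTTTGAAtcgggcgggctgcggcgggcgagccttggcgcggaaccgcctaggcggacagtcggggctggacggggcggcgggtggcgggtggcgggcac
Mcm7, chr5:138171884-138172133, minus strand: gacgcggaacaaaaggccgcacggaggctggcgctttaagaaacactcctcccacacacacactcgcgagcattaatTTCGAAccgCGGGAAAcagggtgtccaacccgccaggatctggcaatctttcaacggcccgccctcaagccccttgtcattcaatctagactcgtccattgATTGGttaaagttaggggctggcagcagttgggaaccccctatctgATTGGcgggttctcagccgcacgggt
Plk1, chr7:122159455-122159484, plus strand: cagcgccgcgTTTGAAttcggggaggagcg
Kif23, chr9:61946780-61946809, minus strand: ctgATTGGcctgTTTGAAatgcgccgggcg

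With the gene start counted as 0, a TTTGAA began at -71 and another at -15 in Cdk1, at 30 in Plk1 and at 2 in Kif23. In Top2a, 6 CCAAT matches and 4 CHR matches were spread over the window. Mcm7 carried 1 CHR match at -173 beside an E2F match at -164, with a further E2F match after the start, and was one of only 2 replication genes with CHR letters. Over the 14 genes with CHR letters and a mean of 50 or more, the median log2 fold change was -0.04 and the median correlation over pairs 0.38. Over the 11 without CHR letters it was -0.27, with a correlation of 0.29. Without replicate 2 the medians of the log2 fold change were -0.18 and -0.36, and those of the correlation fell to 0.17 and 0.11. Replicate 2 was the highest pKO mouse in 11 of the 14 and in 5 of the 11.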

How the data were processed

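Tissue RNA was reverse transcribed from the poly(A) tail, cut with NlaIII and tagged with EcoP15I, and the tags were mapped by the authors with a modified SOLiD SAGE software. The submitters' processing notes name mm10 and edgeR 3.2.3. The deposited signal of each gene is a tag count that the authors divided by a DESeq size factor, and 100% of values came out as whole tags (tolerance 0.05). Log2(value + 1) was fitted for all 15453 genes with limma 3.58.1 (genotype only, mean-variance trend), with Benjamini-Hochberg adjustment, and single genes were also tested by exact two-sided permutation over the 11 mice (462 arrangements, smallest p 0.0022). Genes were called at adjusted p up to 0.1 when their mean reached 50 in WT or in pKO mice, the criterion of the study, and those at unadjusted p up to 0.05 were counted separately. By this criterion the limma fit called 4 genes lower and 1 higher in pKO mice, fewer than the study called with its own test. The 51 genes and all lists were chosen with earlier results of these data known. Values in every mouse were given for genes past the unadjusted threshold whose mean reached 50, the most abundant gene of each role, 5 common markers (Mki67, Top2a, Cdk1, Ccnb1 and Pcna) and the 3 genes with the lowest means, and the other genes named were chosen after their values were seen. Alternatives were total-count and TMM scaling, edgeR 4.0.16 (quasi-likelihood), DESeq2 1.42.0 and limma-voom on recovered tags, pseudocounts of 0.5 and 10, a minimum mean of 10, no minimum mean, no trend, robust estimation, a replicate block, and leaving out each mouse. The limma fit was tested on simulated data. Replicates are separate mice, no library batch was given, no 2 libraries agreed within sampling noise (chi-square per degree of freedom at least 17.7), and the recovered totals set the depth given in the results.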

Additional observations from a re-analysis of the deposited data

Results flagged for a closer look

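Among the 44 sets of values examined (22 quantities, each in WT and in pKO mice), 1 held a mouse far from the others of its genotype. For Ccne1, pKO replicate 2 had 393.1, and the nearest other pKO mouse 201.5, so this gap divided by the range of the 5 mice was 0.77, above Dixon's 95% limit of 0.71. Chance alone gives such a gap in about 1 in 20 sets. The quantities were 18 named genes and the scores of the division genes, and no mouse passed the limit in a score. Replicate 2 had the highest value of the pKO mice in 34 of the 51 division genes.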

How the results depend on the processing

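With all 23 alternatives, 0 of the 51 genes passed the adjusted threshold. Mcm7 was below 0 with an unadjusted p of at most 0.05 in every one, its log2 fold change running from -1.74 to -0.765 and its adjusted p from 0.18 to 0.67. The median log2 fold change ran from -0.17 to -0.10 over changes of scaling, test or filter and from -0.29 (without pKO replicate 2) to -0.06 (without pKO replicate 4) over mice left out, and the score difference from -0.19 to -0.12 and from -0.30 to -0.10. Without a minimum mean, 2 genes were lower and 1 higher at the unadjusted threshold, beside 9.55% of all genes. Leaving out a mouse gave 1 to 3 lower and 0 to 1 higher with the minimum mean, and 2 to 7 lower and 0 to 2 higher with none. The share of all genes called in either direction ran from 7.9% to 14.9% with the minimum mean and from 7.21% to 12.8% with none. Both shares were highest without pKO replicate 2, which also gave the 3 and the 7. Over all genes, 4 lower and 1 higher passed the adjusted threshold, and 63 and 58 with DESeq2 (edgeR 4 and 1), 8 lower with the mean of at least 10, and 2 to 65 lower and 1 to 26 higher with a mouse left out, most without pKO replicate 2. The cause of these shifts was not tested. Mice with the same replicate number did not deviate together (correlations of -0.093 to 0.14, with 1 of 5 WT mice closest to its own number). No pairing by number was thus seen, and what the numbers mark was not given. A replicate block, fitted without WT replicate 6, gave 1 lower and 0 higher genes over all genes. Under this block 0 of the 51 passed the adjusted threshold, the median log2 fold change was -0.14, Kif23 missed the unadjusted threshold (limma adjusted p = 0.67) and Ccnb1 passed it (limma adjusted p = 0.63). Of 412 values of 18 named genes, 23 had another sign, in 7 genes, none past the threshold. With total-count scaling Ube2c was -0.011, Birc5 -0.018 and Anln -0.016, and with limma-voom Ube2c was -0.0019. With each mouse left out in turn, Top2a ran from -0.029 to 0.34, Mki67 from -0.26 to 0.067, Ccnb2 from -0.42 to 0.14, Cdk1 from -0.086 to 0.16, Ube2c from -0.16 to 0.26, Birc5 from -0.16 to 0.20 and Anln from -0.081 to 0.10. Total-count scaling shifted the median of all genes to -0.036, and with it 39 of the 51 genes were below 0. Tag counts limited Cdca8, Ccnb2 and Cdc20 most.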
